A study of Mus musculus with 12 samples.

Results

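The 9 genes followed here are switched on by type I interferon and were measured in mouse left ventricles. They are Irf7, Ifit1, Ifit2, Ifit3, Rsad2, Oasl2, Ifi44, Isg15 and Usp18. Members were chosen by name from the rows of the deposited count table, where 9 of 9 were found among 29564 genes, and 9 of 9 were among the 14333 genes with enough reads to test. The hearts were those of 12 wild-type C57BL6 animals in 3 groups of 4, each sequenced once from polyadenylated RNA. Animals without heart failure that got only vehicle form the Control + Veh group (libraries C1 to C4). In the other groups, heart failure with preserved ejection fraction (HFpEF) was modelled by feeding fat-rich chow while blocking nitric oxide synthase with L-NAME. Those that got vehicle are HFpEF + Veh (V1 to V4), and those that got TYA-018, which inhibits the deacetylase HDAC6, orally at 15 mg/kg are HFpEF + TYA-018 (T1 to T4). The sources differ on the schedule. The title of the series has a single dose, and the labelled treatment protocol has daily dosing for weeks. The study's methods give daily dosing for weeks for its efficacy tests. The study's results describe RNA sequencing after such long treatment, with a group given empagliflozin, and also of hearts collected hours after one dose. None of the 3 groups here was given empagliflozin. No group was a control mouse given TYA-018, so the dose was seen only on top of the model.

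Type I interferons are cytokines that cells release when they sense foreign or misplaced nucleic acid. They bind a receptor made of Ifnar1 and Ifnar2, whose kinases Jak1 and Tyk2 switch on a factor that contains Stat2 and Irf9 and binds interferon-stimulated response elements in promoters. In heart tissue, genes of this kind are expressed by macrophages, endothelial cells and fibroblasts as well as by muscle cells, and a whole ventricle does not separate them.

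Promoters are shown for the members in which a response element was found by its letters, since this is the sequence through which the pathway is known to act on its targets. RefSeq gave a promoter, from 250 bases before to 50 bases after the start of transcription, for 8 of 9 members, and none was matched for Usp18. The motif searched was TTTC, then any 2 bases (NN), then TTTC, on either strand, so that on the other strand it reads GAAA, NN, GAAA. It was present in the promoters of 4 of 8 members, against 3.99% of the 27025 genes with a promoter in the same table. In the sequences below, read 5′ to 3′ on the strand of the gene in build GRCm38.p6, the capitals mark the matches and lower case their flanks.
Ifit1 (chr19:34640765-34640833, plus strand, 2 matches): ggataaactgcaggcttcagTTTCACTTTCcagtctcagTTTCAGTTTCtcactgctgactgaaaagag
Ifit3 (chr19:34583353-34583436, plus strand, 2 matches): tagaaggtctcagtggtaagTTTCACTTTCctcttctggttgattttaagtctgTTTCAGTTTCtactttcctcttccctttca
Isg15 (chr4:156200855-156200916, minus strand, 3 overlapping matches): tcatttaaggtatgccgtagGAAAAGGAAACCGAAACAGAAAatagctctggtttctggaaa
Rsad2 (chr12:26456543-26456592, minus strand, 1 match): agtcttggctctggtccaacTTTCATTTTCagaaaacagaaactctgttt

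Each stretch lies upstream of the start of transcription. Ifit1 and Ifit3 carried the same pair of 10-letter matches, in the same order, and differed in the number of bases between them. These letters were not in the windows of Ifit2 (which has 2 listed starts), Irf7, Oasl2 and Ifi44, which says nothing about other sites or other spellings. Among the other genes known to be induced by type I interferon, 14 of 41 with a listed promoter held the motif, and among targets of interferon gamma 10 of 12 did.

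Levels are given in CPM, the estimated reads of a gene per M reads of its library, after scaling by trimmed means (TMM), where M is the usual prefix mega. The libraries held 61.2 M to 83.9 M estimated reads, of which 0.00586% to 0.0114% fell on the 9 members. Between libraries of the same group, the Pearson correlation of log2 CPM over genes was 0.948 to 0.970, and between groups 0.936 to 0.964 (genes are not independent replicates). Mitochondrial genes held 43.1% to 47.7% of the reads in HFpEF + Veh and 35.4% to 41.2% in the other libraries. Differences are log2 fold changes with their SE from edgeR's quasi-likelihood test, with p adjusted over the 14333 genes (Benjamini-Hochberg), and a gene was called at an adjusted p under 0.05. Each mouse carries a number in the labels but no cage or date, and animals of one group had neighbouring numbers, so cage, date and handling order cannot be told apart from the group.

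In HFpEF + Veh hearts, 9 of 9 members were called higher than in Control + Veh, by 0.39 to 1.07 on the log2 scale. Over all genes tested, 10.9% were called higher. The median log2 fold change was 0.68 for the members and -0.01 for all genes. Because the members were chosen with earlier results of these data known, the values over all genes are a description and not a test. The groups did not overlap, every HFpEF + Veh library lying above every Control + Veh library, for 8 of 9 members, against 12% of all genes tested. After TYA-018, 9 of 9 members were below HFpEF + Veh, against 49.7% of all genes tested, and 7 were called lower, by 0.42 to 1.05, against 10.4% of all genes tested. Against Control + Veh, no member was called after TYA-018. Since the first and second comparison share the HFpEF + Veh libraries, a low or high value in those libraries moves both in opposite directions. Throughout, fewer cells of a type and less RNA per cell cannot be told apart in these bulk samples.

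**Figure D1:**
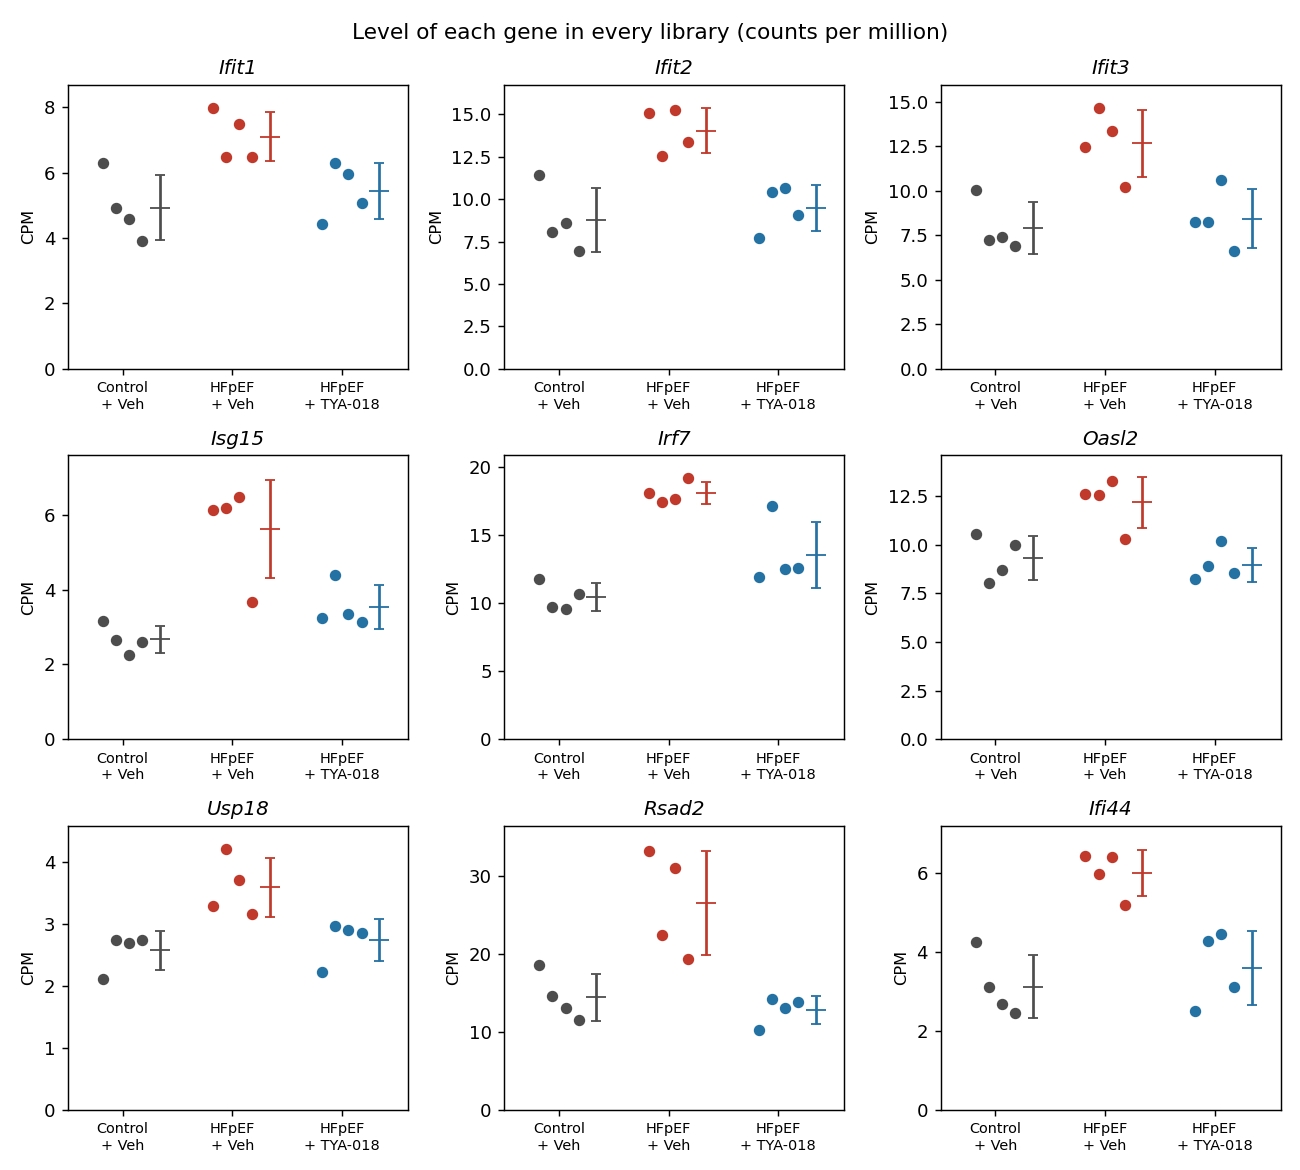
CPM of each of the 9 members (vertical axes, each from 0) in the 12 libraries by group (horizontal axes). Points are single mice, and the bar beside them is the mean with its SD (n = 4). For 8 members every HFpEF + Veh point lies above every Control + Veh point, and for Oasl2 the lowest HFpEF + Veh library (10.3 CPM) lies under the highest Control + Veh library (10.5 CPM).

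Irf7 is the factor that the first wave of interferon induces and that then drives the genes of interferon alpha. The gene (ENSMUSG00000025498.15) lies at chr7:141262706-141266481 on the minus strand of GRCm38 and overlaps Phrf1, which is read from the other strand. In C1 to C4 it was at 11.8, 9.73, 9.56 and 10.7 CPM. In V1 to V4 it was at 18.1, 17.5, 17.7 and 19.2 CPM, and in T1 to T4 at 11.9, 17.2, 12.5 and 12.6 CPM. The HFpEF + Veh libraries lay close together and above all others, the treated libraries lay in between, and T2 stood near HFpEF + Veh. Irf7 rose 1.73-fold in the model (log2 fold change 0.79, SE 0.11, adjusted p = 0.000998), the smallest p among the members. It fell by 0.42 after TYA-018 (SE 0.11, adjusted p = 0.0223). Every treated library was still above every Control + Veh library, a difference of 0.38 with a 95% confidence interval of 0.13 to 0.62 that was not called by edgeR (adjusted p = 0.0697) and was called by DESeq2 (adjusted p = 0.0215). Groups that do not overlap in this way were seen, higher after TYA-018 than in Control + Veh, in 7.76% of all genes tested.

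The IFIT proteins bind viral RNA and block its translation. Ifit1 (chr19:34640871-34650009), Ifit2 (chr19:34550694-34576419) and Ifit3 (chr19:34583531-34588731) lie together on the plus strand. Ifit2 was at 11.4, 8.09, 8.59 and 6.95 CPM in C1 to C4, at 15.1, 12.5, 15.2 and 13.4 CPM in V1 to V4 and at 7.72, 10.4, 10.7 and 9.10 CPM in T1 to T4. Its HFpEF + Veh values lay above both other groups, which overlapped each other over most of their range. The rise in the model was 1.6-fold (0.68, SE 0.15, adjusted p = 0.00776), and the fall after TYA-018 was 0.57 (log2 fold change -0.57, SE 0.15, adjusted p = 0.0194).

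Ifit3 was at 10.1, 7.22, 7.43 and 6.87 CPM in C1 to C4. It was at 12.4, 14.6, 13.4 and 10.2 CPM in V1 to V4 and at 8.22, 8.25, 10.6 and 6.62 CPM in T1 to T4. One HFpEF + Veh library, V4, lay below the highest treated library. The log2 fold change was 0.68 (SE 0.16, adjusted p = 0.0122) in the model and -0.59 (SE 0.16, adjusted p = 0.0257) after TYA-018. Ifit3 shares 61.8% of its 31-base stretches with its copy Ifit3b, so the division of reads between them is uncertain. With both rows summed before the fit, a choice made after the values were seen, the values were 0.58 (adjusted p = 0.0138) and -0.58 (adjusted p = 0.0161).

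Ifit1 was at 6.29, 4.93, 4.59 and 3.93 CPM in C1 to C4. It was at 7.99, 6.47, 7.49 and 6.47 CPM in V1 to V4 and at 4.44, 6.31, 5.96 and 5.08 CPM in T1 to T4. The highest library of both other groups came close to the lowest of HFpEF + Veh without reaching it. Ifit1 was called higher in the model (0.53, SE 0.15, adjusted p = 0.0295). The difference after TYA-018 was -0.39 (95% confidence interval -0.72 to -0.05) and was not called (adjusted p = 0.0968), although the groups did not overlap, as was the case in that direction for 13.1% of all genes tested.

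The remaining genes of the family went different ways, and they are named here after their values were seen. Ifit3b (listed as I830012O16Rik) averaged 3.62 ± 0.769 CPM for Control + Veh, 4.58 ± 0.504 CPM for HFpEF + Veh and 3.11 ± 0.248 CPM for HFpEF + TYA-018 (SD, n = 4). It was not called in the model (0.34, adjusted p = 0.122) and was called lower after TYA-018 (-0.56, adjusted p = 0.0229). Ifit1bl1 (Gm14446) and Ifit1bl2 (2010002M12Rik), copies related to Ifit1, were called lower in the model. Ifit1bl1 fell from 2.37 ± 0.243 to 1.27 ± 0.231 CPM (-0.90, adjusted p = 0.00561) and Ifit1bl2 from 1.99 ± 0.417 to 0.993 ± 0.227 CPM (-1.003, adjusted p = 0.00665). In each, no HFpEF + Veh library reached the Control + Veh range, opposite in sign to Ifit1, Ifit2 and Ifit3. Ifit1 shares 9.16% of its 31-base stretches with Ifit1bl2. Neither copy was called after TYA-018 against HFpEF + Veh (0.18, adjusted p = 0.517, and 0.47, adjusted p = 0.134).

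Rsad2 encodes viperin, a radical SAM enzyme that makes a chain-terminating nucleotide. At chr12:26442746-26456452 on the minus strand, it was the member with the highest CPM in HFpEF + Veh. It was at 18.6, 14.6, 13.03 and 11.5 CPM in C1 to C4, at 33.2, 22.5, 30.98 and 19.3 CPM in V1 to V4 and at 10.2, 14.2, 13.04 and 13.8 CPM in T1 to T4. The HFpEF + Veh libraries were spread widely but all lay above the other 2 groups. Rsad2 rose 1.84-fold in the model (0.88, SE 0.19, adjusted p = 0.00764). It fell by 1.05 on the log2 scale after TYA-018 (SE 0.19, adjusted p = 0.00404), the farthest of the members. The mean of the treated libraries, 12.8 ± 1.81 CPM, was under that of Control + Veh, 14.4 ± 3.05 CPM, a difference that was not called (adjusted p = 0.642).

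Oasl2 (chr5:114896936-114912234, plus strand) encodes a protein related to the oligoadenylate synthetases. Its levels were 10.5, 8.03, 8.72 and 9.98 CPM in C1 to C4, 12.6, 12.6, 13.3 and 10.3 CPM in V1 to V4 and 8.23, 8.90, 10.2 and 8.54 CPM in T1 to T4. Here V4 lay under C1, and the treated libraries lay within the range of Control + Veh. The rise in the model was the smallest of the members (0.39, SE 0.11, adjusted p = 0.0258), and the fall after TYA-018 was 0.44 (log2 fold change -0.44, SE 0.11, adjusted p = 0.0161). Ifi44 (chr3:151730922-151749960, minus strand), an interferon-induced cytoplasmic protein, was at 4.23, 3.10, 2.68 and 2.45 CPM in C1 to C4, 6.41, 5.95, 6.40 and 5.19 CPM in V1 to V4 and 2.51, 4.27, 4.44 and 3.10 CPM in T1 to T4. The HFpEF + Veh libraries again formed a group of their own, above treated libraries that split into a lower and a higher pair. Ifi44 rose 1.92-fold (0.94, SE 0.20, adjusted p = 0.00805) and then fell by 0.74 on the log2 scale (SE 0.20, adjusted p = 0.0251).

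Isg15 is a small protein that is attached to others like ubiquitin, and Usp18 removes it and also damps the receptor at Ifnar2. Isg15 (chr4:156199424-156200818, minus strand) was at 3.16, 2.65, 2.26 and 2.61 CPM in C1 to C4. It was at 6.14, 6.19, 6.49 and 3.68 CPM in V1 to V4 and at 3.24, 4.40, 3.35 and 3.13 CPM in T1 to T4. V1, V2 and V3 were nearly alike and V4 lay below T2. Isg15 rose 2.11-fold in the model, the largest fold of the members (1.07, SE 0.19, adjusted p = 0.00248), and fell by 0.67 after TYA-018 (log2 fold change -0.67, SE 0.18, adjusted p = 0.025). Against Control + Veh the treated libraries were higher by 0.40 (95% confidence interval 0.00 to 0.80, adjusted p = 0.222), with 3 of 4 above every Control + Veh library.

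Usp18 (chr6:121245906-121270917, plus strand) overlaps Gm44148, a noncoding RNA of the other strand. The gene was at 2.10, 2.75, 2.70 and 2.74 CPM in C1 to C4, at 3.28, 4.21, 3.71 and 3.16 CPM in V1 to V4 and at 2.23, 2.97, 2.90 and 2.86 CPM in T1 to T4. All HFpEF + Veh libraries lay above all others, by a narrow margin over T2. Usp18 was called higher in the model (0.48, SE 0.14, adjusted p = 0.0317). After TYA-018 the difference was -0.39 (95% confidence interval -0.70 to -0.08) and was not called (adjusted p = 0.0727).

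**Figure D2:**
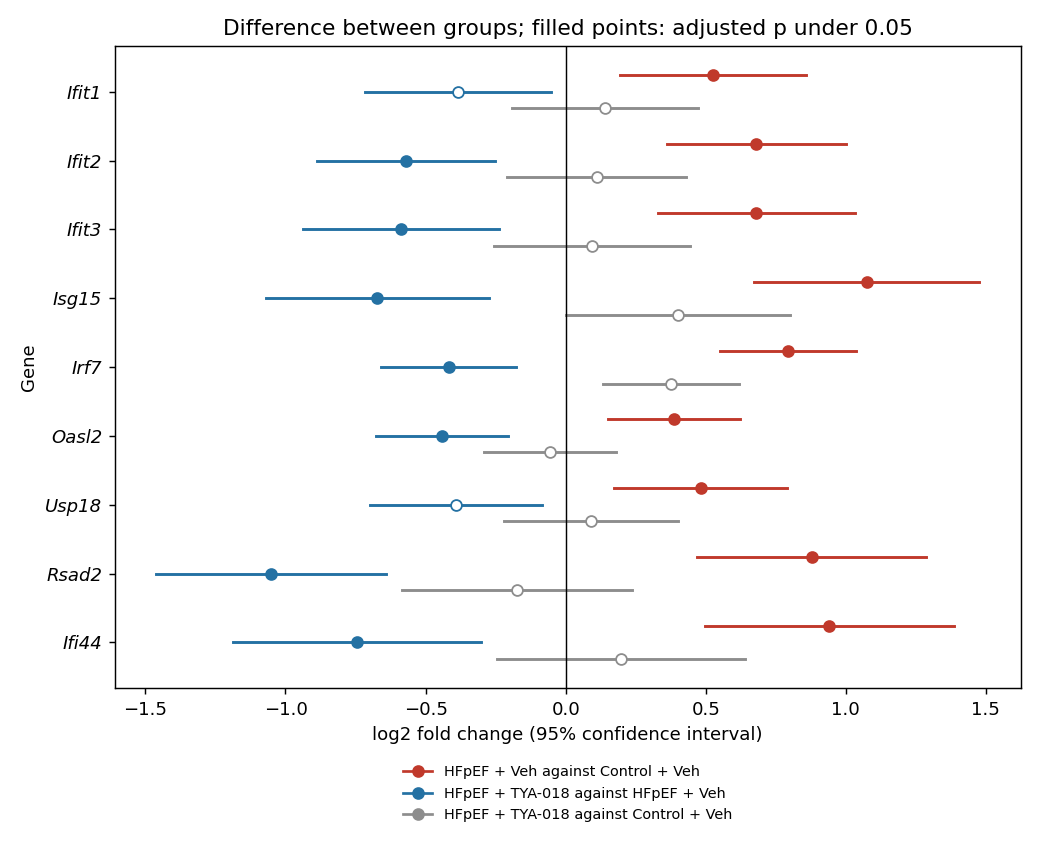
Log2 fold change (horizontal axis) of each member (vertical axis) in the 3 comparisons, with 95% confidence intervals as lines. Filled points are called (adjusted p under 0.05): 9 of 9 in HFpEF + Veh against Control + Veh, all above 0, 7 of 9 in HFpEF + TYA-018 against HFpEF + Veh, all below 0, and none in HFpEF + TYA-018 against Control + Veh.

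By group means the order was HFpEF + Veh, then HFpEF + TYA-018, then Control + Veh for 7 members, and HFpEF + Veh, Control + Veh, HFpEF + TYA-018 for Oasl2 and Rsad2. The last 2 places did not differ beyond the test for any member with edgeR: 0 members were called between HFpEF + TYA-018 and Control + Veh, 2 (Isg15 and Irf7) had an unadjusted p under 0.05, against 22.5% of all genes, and DESeq2 called 1 (Irf7). The background in that comparison was 5.86% of all genes tested called by edgeR. The intervals there still allow differences of some size, for example -0.58 to 0.24 for Rsad2 and -0.25 to 0.64 for Ifi44.

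The members tended to share their high and low libraries. C1 was the highest Control + Veh library for 8 of 9 members, the exception being Usp18, and it was the highest of the 4 for 33.4% of all genes tested. T1 was the lowest treated library for 7 of 9 members, against 27% of all genes, and V4 the lowest HFpEF + Veh library for 6 of 9, against 22.5%. Summed over the 9 members, C1 was at 78.1 CPM and the other Control + Veh libraries at 57.7 to 61.1 CPM, T1 was at 58.7 and the other treated libraries at 64.8 to 76.9 CPM, and HFpEF + Veh ran from 90.9 (V4) to 115 CPM (V1). T1 was also the deepest library, at 83.9 M reads. Without T1, 1 of 9 members (Rsad2) was called lower after TYA-018, and the calls over all genes went from 2767 to 1485. Without V1, V3, V2 or T4 the members called were 3, 3, 4 and 4, and all genes called 2007, 1913, 2035 and 2729. Without any single library it ranged from 1 to 6, and in the first comparison from 6 to 9. Rsad2 was called in both comparisons whichever library was left out. In the first comparison Ifit1, Oasl2 and Usp18 each lost their call in 5 of 8 such fits, and the other members in none.

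Levels between genes can be compared only per length. On the deposited TPM scale, which divides by the effective length of each gene, the members were low in all groups: in HFpEF + Veh from 0.240 ± 0.0545 TPM for Usp18 and 0.419 ± 0.0718 TPM for Ifi44 to 4.95 ± 1.53 TPM for Isg15 and 5.82 ± 1.99 TPM for Irf7 (SD, n = 4). The deposited effective lengths themselves differed between groups. The effective length of Ifit1 averaged 3861 bases for Control + Veh, 5075 for HFpEF + Veh and 3153 for HFpEF + TYA-018, and in 12 of 12 libraries it was over the 2656 bases of its longest transcript in GENCODE M21. Ifit2, Ifit3, Usp18 and Rsad2 were also over their longest transcript in every library. Irf7 averaged 907 bases in Control + Veh, 1117 in HFpEF + Veh and 1589 after TYA-018, longest in the treated libraries, where Ifit1 was shortest.

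On scales that divide by these lengths, several results changed. Only the offset kept the edgeR test on counts, while the TPM scales also had another test, another scaling and an added constant. With the lengths as an offset in the same edgeR test, 4 members (Isg15, Rsad2, Ifit2 and Ifi44) were called higher in the model and 3 (Rsad2, Irf7 and Isg15) lower after TYA-018. On log2(TPM + 1) with limma, no member was called in either comparison, with 2 of 9 at an unadjusted p under 0.05 in each, where edgeR on counts called 9 and 7. Over all genes that scale called 172 in the first comparison, where edgeR on counts called 3033, and in the second 2228 were called higher. Then 2 (Isg15 and Rsad2) and 1 (Rsad2) were called once TPM was rescaled over protein-coding, non-mitochondrial genes. Ifit1 after TYA-018 turned from -0.39 to 0.14 with the offset and to 0.21 on log2(TPM + 1), neither of them called. On that last scale the median of all genes was itself shifted by 0.17 after TYA-018, and Ifit1 lay close to it. The added 1 shrinks the change of genes under 1 TPM, such as Ifit1 (mean 0.457 TPM in HFpEF + Veh and 0.687 TPM in HFpEF + TYA-018). On log2(TPM + 0.1) Ifit1 was at 0.50, above the median of all genes on that scale. Irf7 against Control + Veh turned from 0.38 to -0.34 with the offset. Isg15, Rsad2, Ifit2, Ifit3, Irf7 and Ifi44 kept their sign on all of these scales in both of the first comparisons, and Ifit1, Oasl2 and Usp18 did not.

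**Figure D3:**
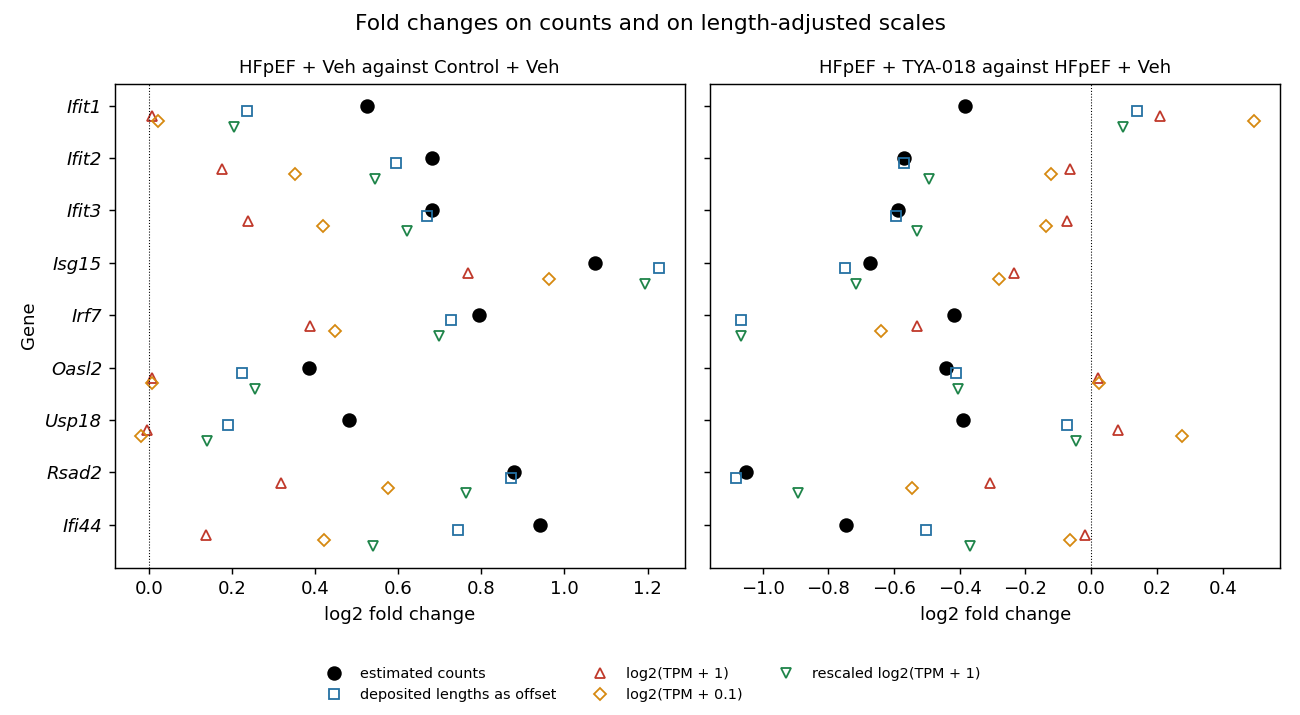
Log2 fold change (horizontal axes) of each member (vertical axis) on estimated counts (filled circles) and on 4 scales that use the deposited effective lengths (open symbols), for the first comparison (left) and the second (right). The open symbols of Ifit1, Usp18 and Oasl2 lie nearer to 0 than the circle in the first comparison, and those of Ifit1 lie on the other side of 0 in the second.

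Upstream of the members, the interferon genes themselves were not detectable at this depth. Of 12 interferon genes, 7 had no read in any library and the other 5 had at most 5 reads summed over the 12 libraries. A count of 0 allows up to 3 reads, which is 0.0319 to 0.0521 CPM in these libraries.

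Among receptors and kinases, Ifnar1, Ifnar2 and Jak1, which carry the type I signal, were not called in any comparison, with log2 fold changes of 0.07, 0.10 and -0.00 in the model. Ifngr1, a chain of the interferon gamma receptor, was at 49.4 to 62.8 CPM for Control + Veh, 66.4 to 77.9 for HFpEF + Veh and 43.5 to 53.98 for HFpEF + TYA-018. It rose by 0.40 in the model (adjusted p = 0.00974) and fell by 0.54 after TYA-018 (adjusted p = 0.00292). Its partner Ifngr2 was not called in the model (0.01, adjusted p = 0.951) and was called higher after TYA-018 (0.29, adjusted p = 0.0111). Il10rb, a chain shared by the receptors of interleukin 10 and interferon lambda, was called in the opposite directions to the members, with -0.35 (adjusted p = 0.00231) and then 0.23 (adjusted p = 0.0204), and Ifnlr1, the other lambda chain, was not called (-0.52, adjusted p = 0.0523, and 0.34, adjusted p = 0.197). Jak2 was not called (-0.25 and 0.06). Tyk2 was listed at 0 in 6 of 12 libraries and at 107 to 793 reads in the other 6, with both kinds in every group, so no fold is given for it.

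Among the factors of the pathway, Stat2 was not called in the model (0.12, adjusted p = 0.436) and was called lower after TYA-018 (-0.37, adjusted p = 0.0269). Irf9 had 0.23 (adjusted p = 0.0905) and -0.26 (adjusted p = 0.0653). Irf3, the factor activated directly below the sensors, was called lower in the model (-0.59, adjusted p = 0.00621), with 16.9 to 24.5 CPM for Control + Veh against 11.9 to 17.1 CPM for HFpEF + Veh, ranges that overlap slightly, and was not called after TYA-018 (0.29, adjusted p = 0.115). Irf1, Irf2, Irf5 and Irf8 were not called in any comparison, with values of 0.14, 0.29, 0.43 and 0.25 in the model. Of 8 such factors, 1 was called lower in the model and 1 lower after TYA-018, near the 10.3% and 10.4% of all genes tested. No negative regulator was called among Socs1, Socs3, Pias1 and Ptpn2, and Socs1 was listed at 0 in 6 libraries.

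Of 12 sensors and adaptors, 2 were called higher in the model and 2 lower after TYA-018. That share of calls is near that of all genes tested (10.9% and 10.4%). Their medians were shifted all the same. In the model the median log2 fold change was 0.36, with 11 of 12 above 0, where the median of all genes was -0.01. After TYA-018 it was -0.35, with 9 of 12 below 0, where the median of all genes was 0.002. Dhx58, a helicase related to the RNA sensor Ddx58, was at 1.41 to 1.81 CPM in Control + Veh and 2.03 to 3.03 CPM in HFpEF + Veh (0.66, adjusted p = 0.0192), and was not called after TYA-018 (-0.39, adjusted p = 0.134). Mavs, the adaptor of the RNA sensors on mitochondria, was called higher in the model (0.37, adjusted p = 0.00982) and was at 31.8 to 36.3 CPM after TYA-018, above the 23.6 to 27.96 CPM of Control + Veh (0.41, adjusted p = 0.0179). After TYA-018, Ddx58 (-0.31, adjusted p = 0.0417) and Mb21d1, which encodes the DNA sensor cGAS (-0.59, adjusted p = 0.0399), were called lower. In the model these had 0.28 (adjusted p = 0.0584) and 0.49 (adjusted p = 0.0723).

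Beyond the members, 51 genes known to be induced by type I interferon were listed and 49 were tested. In the model 18 were called higher and 2 lower (background 10.9% and 10.3%; the 2 were the copies Ifit1bl1 and Ifit1bl2), with a median log2 fold change of 0.26. After TYA-018, 19 were called lower and 0 higher (background 10.4% and 8.93%), with a median of -0.28. Isg20, an RNA exonuclease, was at 4.06, 4.20, 4.16 and 4.96 CPM in C1 to C4, 20.1, 9.79, 15.3 and 8.66 CPM in V1 to V4 and 4.82, 5.98, 5.55 and 5.40 CPM in T1 to T4. Its change was larger than that of any member in both comparisons (1.63, adjusted p = 0.000906, and -1.31, adjusted p = 0.00291). Ube2l6, the enzyme that passes Isg15 on to its targets, had 1.71 (adjusted p = 0.000922) and -1.27 (adjusted p = 0.00434). Lgals3bp, a secreted glycoprotein, had 0.74 (adjusted p = 0.00147) and -0.62 (adjusted p = 0.00431), and Tor3a, an interferon-induced ATPase of the torsin family, 0.53 (adjusted p = 0.00197) and -0.43 (adjusted p = 0.00682).

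Targets of interferon gamma were counted in the same way. Of 16 tested, 0 were called higher in the model and 2 lower, against 10.9% and 10.3% of all genes tested. An unadjusted p under 0.05 in either direction was seen for 4 of the 16, against 5093 of the 14333 genes tested. The 2 lower were the GTPases Tgtp1 (-0.71, adjusted p = 0.037) and Tgtp2 (-0.92, adjusted p = 0.0465), which share 83.2% of Tgtp1 in 31-base stretches and cannot be read apart with certainty. The median of the 16 was -0.02. Gbp7, a guanylate-binding protein, was not called in the model (0.01, adjusted p = 0.981). It was the only one of the 16 called lower after TYA-018 (-0.52, adjusted p = 0.0272), against 10.4% of all genes tested, while Gbp5 had -0.90 (adjusted p = 0.0503). The difference between the type I and the gamma list was not tested. Over the 112 genes of all pathway lists, 98 were tested, of which 21 were called higher and 6 lower in the model (background 10.9% and 10.3%). After TYA-018, 2 were called higher and 24 lower (background 8.93% and 10.4%). Between HFpEF + TYA-018 and Control + Veh, 2 were called higher and 3 lower, where 5.86% of all genes tested were called in either direction.

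**Figure D4:**
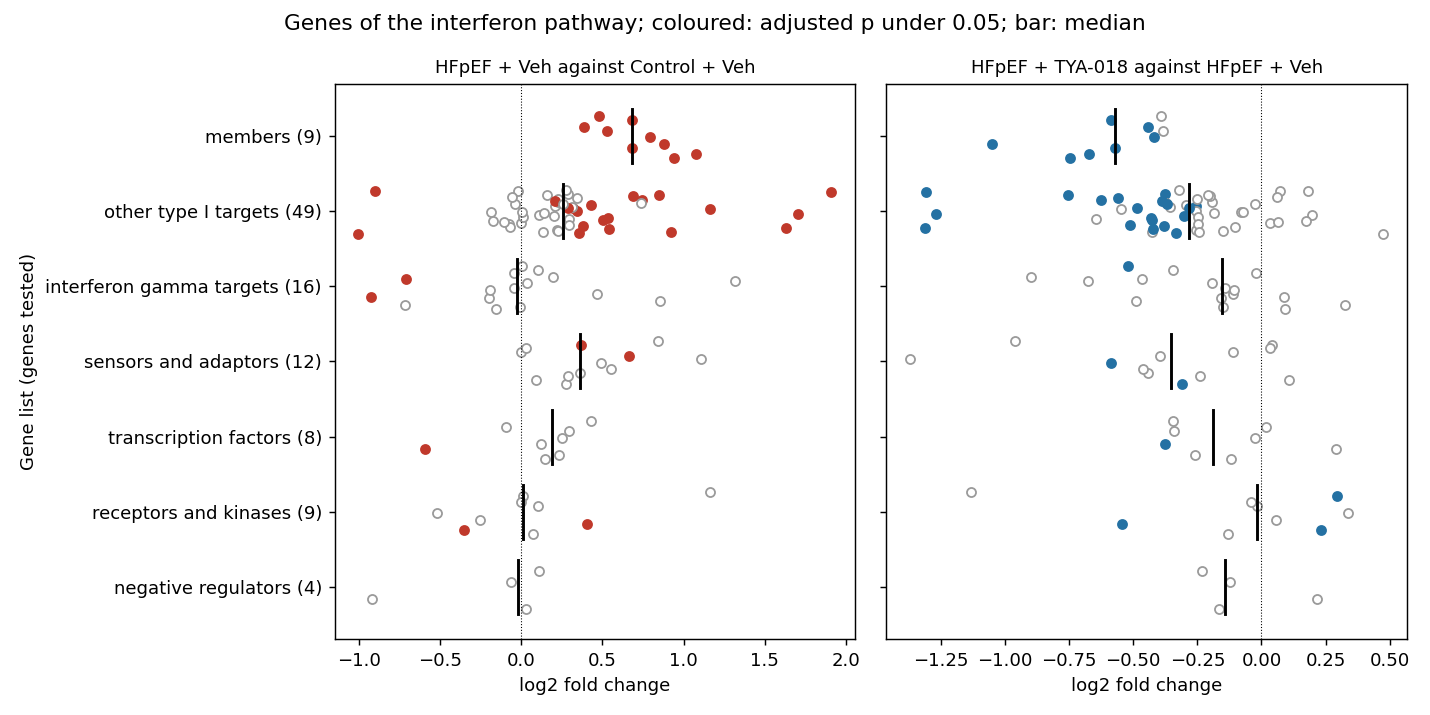
Log2 fold changes (horizontal axes) of the tested genes in each list of the interferon pathway (vertical axis, with the number tested) in the first comparison (left) and the second (right). Each point is a gene, coloured where it was called, and the black bar is the median of the list. The members' medians are 0.68 and -0.57, and those of the other type I targets 0.26 and -0.28. Those of the sensors and adaptors are 0.36 and -0.35, and those of the interferon gamma targets -0.02 and -0.15.

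Markers of several cell types moved in the same direction as the members, and their part in the result was not tested. Of 12 macrophage markers, 10 were called higher in the model and 7 lower after TYA-018, against 10.9% and 10.4% of all genes tested. Their summed level was 118 to 143 CPM for Control + Veh, 181 to 232 for HFpEF + Veh and 122 to 146 for HFpEF + TYA-018. C1, the Control + Veh library with the highest members, was also the highest in this sum. This was not particular to macrophages. C1 was also the highest Control + Veh library in the sums of fibroblast, monocyte and neutrophil, lymphocyte and dendritic cell markers. It was not the highest for endothelial or red cell markers, and it was the lowest for ventricular and atrial muscle markers. Within HFpEF + Veh the order differed: the macrophage sum ran from V2 through V3 and V4 to V1, and the sum of the members from V1 through V3 and V2 to V4. No macrophage marker was listed at 0 in any library. Endothelial markers (8 tested, 3 called higher and then 4 lower, background 10.9% and 10.4%) summed to 1463 to 1648, 1659 to 1989 and 1375 to 1647 CPM in the 3 groups. Fibroblast markers (6 tested, 3 called higher and then 4 lower, with the same background) summed to 411 to 616, 608 to 862 and 398 to 587 CPM.

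Among red cell markers, the globins and the heme enzyme Alas2, all 5 were called higher in the model and all 5 lower after TYA-018 (background 10.9% and 10.4%). They summed to 1553 to 2309 CPM for Control + Veh, 4785 to 14139 for HFpEF + Veh and 2295.98 to 3572 for HFpEF + TYA-018. In V1 to V4 the sums were 14139, 5994, 7896 and 4785 CPM. The order of these libraries, V1, V3, V2, V4, was also that of Rsad2 and Ifi44 and of Isg20, Ube2l6 and Lgals3bp. It was not that of the other 7 members. The sum of the members had this order too, but is not a separate match. In it Rsad2 had the highest level and widest spread of the members in HFpEF + Veh (26.5 ± 6.67 CPM, SD, n = 4). The share of all genes tested with this order was not counted. This order was looked at after the values were seen, and its part in the result was not tested. Ventricular muscle markers summed to 23501 to 32463, 22224 to 23972 and 24663 to 27141 CPM. In the model 4 of 6 were called lower and 1, Actc1, higher (0.32, adjusted p = 0.0391), against 10.3% and 10.9% of all genes tested.

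Markers of blood leukocytes were low. Monocyte and neutrophil markers (5 of 6 tested) summed to 5.46 to 11.2 CPM for Control + Veh, 5.35 to 9.54 for HFpEF + Veh and 4.73 to 7.52 for HFpEF + TYA-018, with S100a8 listed at 0 in 2 HFpEF + Veh libraries. Within this list Ccr2, a receptor of recruited monocytes, was called higher in the model (1.12, adjusted p = 0.0286), as were the members, and every HFpEF + Veh library lay above every other library. S100a9, an abundant neutrophil protein, was called lower (-1.63, adjusted p = 0.0275). Neither was called after TYA-018 (-0.77, adjusted p = 0.114, and 0.62, adjusted p = 0.375), and their part in the result was not tested. Lymphocyte markers (6 of 8 tested) summed to 2.37 to 4.12, 1.91 to 2.87 and 2.11 to 2.55 CPM. Of 5 dendritic cell markers, 2 had enough reads to test and summed to 0.277 to 0.787, 0.636 to 1.48 and 0.246 to 0.536 CPM. Of these Clec9a was called lower after TYA-018 (-1.77, adjusted p = 0.0329) and not called in the model (1.17, adjusted p = 0.118), and Flt3 was not called in either. Siglech, which marks the plasmacytoid cells known as producers of interferon, had at most 19 reads in a library. The left ventricle itself was marked by ventricular genes. Atrial markers (3 of 4 tested) summed to 61.8 to 244 CPM, nearly all of it Nppa. Nppa averaged 191 CPM for Control + Veh, 112 for HFpEF + Veh and 148 for HFpEF + TYA-018. By group, Myl4 averaged 2.14 to 2.34 CPM and Myl7 0.0541 to 0.186 CPM, and Sln had no more than 5 reads in any library.

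**Figure D5:**
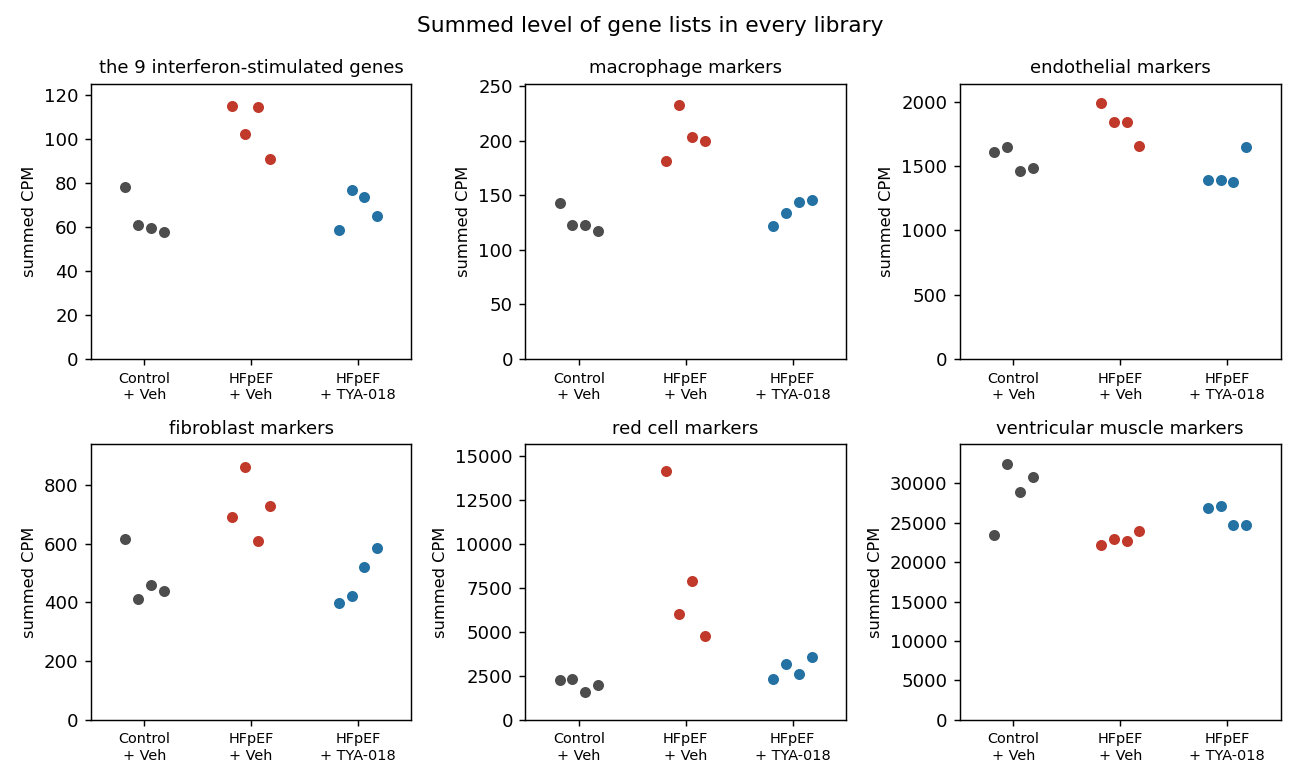
Summed CPM (vertical axes, each from 0) of the 9 members and of 5 lists of cell type markers in every library, by group (horizontal axes). Each point is 1 mouse. The members, macrophage markers, endothelial markers and red cell markers of every HFpEF + Veh library lie above those of every other library. For the endothelial markers the margin is narrow (1659 CPM against 1648 CPM in Control + Veh). The lowest HFpEF + Veh fibroblast sum (608 CPM) lies just under the highest Control + Veh sum (616 CPM).

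Over the 12 libraries, the 10 genes outside the members whose log2 CPM was most like the mean scaled level of the members were Lgals3bp (Pearson's r 0.974, Spearman's rho 0.909), Tes (0.966), Il2rg (0.961), Actr3 (0.959), Elf4 (0.959), Tmem184b (0.956), Cdc42 (0.954), Tpm4 (0.950), Stx2 (0.948) and Capza1 (0.946). One of them, Lgals3bp, was in the lists of the pathway. These values rest largely on the group means, which the libraries of a group share, and 1% of the 14324 genes compared had an r over 0.890. Once each group was centred on its own mean, the 10 most alike were Tlr6 (0.949), Pcdhb5 (0.935), Pcdhga6 (0.926), Ddx10, Cd300lh, Kcnd2, Mycl, Sema3f, Zfp760 and Lama3 (0.889), with none in the lists of the pathway and none shared with the first 10. In that measure 1% of genes had an r over 0.743.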

How the data were processed

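The authors trimmed reads with fastp and quantified them with Salmon 1.6.0 (with its sequence, GC and position corrections) against mouse GENCODE M25 transcripts of GRCm38, and summed them to genes with tximport. The submitters' processing notes name the human build hg38, which the mouse gene names contradict, and the labels and the study's methods give different read lengths and layouts. The deposited tables held estimated counts, TPM and other values, namely gene-wise effective lengths in bases. No column was left out (0 unused).

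Estimated counts were rounded, filtered with filterByExpr (14333 genes, 99.98% of counts) and passed to edgeR 4.0.16 (R 4.3.3): TMM, one quasi-likelihood model over 12 libraries with the group as the only term, two-sided tests and Benjamini-Hochberg adjustment. CPM values are after TMM. DESeq2 1.42.0, and limma 3.58.1 on log2(TPM + 1) and log2(TPM + 0.1), were alternatives, with other scalings, filters and the lengths as offset. The fits were also run on counts simulated from edgeR's own estimates of spread, with the same length for a gene in every library. Those runs cannot show how the fits behave where effective lengths differ between groups, as they do here. A library is 1 mouse, so the spread includes that between mice. Depth limits only the genes near 0, and floors cover counting error only.

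The members, gene lists and tests were chosen with earlier results of these data known. Members were named in every library. Genes of receptors and kinases, factors and negative regulators could all be named, other lists by the 4 genes with the smallest p in either of the first 2 comparisons, and 10 genes for each measure of likeness, with exceptions said where they occur. Older names were matched through RefSeq synonyms. Gene positions are from GENCODE M21 (GRCm38), promoters from RefSeq (GRCm38.p6). One listed gene is not reported here by name.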

Additional observations from a re-analysis of the deposited data

Results flagged for a closer look

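In 4 of 27 checks, 1 for each member in each group, a library stood apart from the other 3 of its group by Dixon's criterion, which chance alone meets in about 1 in 20. Isg15 was at 3.68 CPM in V4, below the 6.14 to 6.49 CPM of the other HFpEF + Veh libraries. Irf7 was at 17.2 CPM in T2, above the 11.9 to 12.6 CPM of the other treated libraries. Usp18 was low in C1, at 2.10 CPM against 2.70 to 2.75 CPM, and in T1, at 2.23 CPM against 2.86 to 2.97 CPM. C1 was the highest Control + Veh library for each of the other 8 members.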

How the results depend on the processing

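No paired analysis was possible because each group had its own animals, with numbers found in no other group. Among the members, DESeq2, RLE size factors, scaling without mitochondrial genes, no filter and the libraries of each comparison alone called 8 or 9 in the first comparison, 7 in the second and 0 in the third, except that DESeq2 called 1 there (Irf7, 0.38). The effective lengths as offset gave 4 and 3 in the first 2 comparisons, log2(TPM + 1) 0 and 0, log2(TPM + 0.1) 0 and 0, and rescaled TPM 2 and 1; the cause was not tested.

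Leaving out 1 library gave 6 to 9, 1 to 6 and 0 to 0 members called in the 3 comparisons, 18 to 41, 11 to 24 and 1 to 5 pathway genes (27, 26 and 5 with all libraries), and 1986 to 3992, 1485 to 2729 and 308 to 809 of all genes (3033, 2767 and 840). For the first comparison, all genes called were 1444 with the offset, 172 and 301 on log2(TPM + 1) and log2(TPM + 0.1) and 1058 rescaled, and pathway genes 3, 4 and 16 on the last 3. For the second they were 1221 with the offset and 742 rescaled, and pathway genes 15, 3, 5 and 9 on the 4 scales. For the third, all genes were 1514 with DESeq2 and 206, 9, 11 and 94 on the 4 scales, and pathway genes 9 with DESeq2, 3 without filter and 1, 0, 0 and 0 on the 4 scales. On log2(TPM + 1) and log2(TPM + 0.1) the median of all genes was -0.069 and -0.17 in the first comparison, 0.080 and 0.17 in the third, and 0.17 and 0.34 in the second, where 2228 and 2548 genes were called higher.

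Signs turned as follows, none of them called. Usp18 in the first comparison was -0.0031 and -0.0195 on the 2 TPM scales. In the second comparison Ifit1 was 0.14 with the offset, 0.21 and 0.50 on the TPM scales and 0.098 rescaled, Oasl2 0.0195 and 0.0246, and Usp18 0.080 and 0.28 on the TPM scales. In the third, Irf7 was -0.34 with the offset, -0.14 and -0.19 on the TPM scales and -0.37 rescaled, Oasl2 0.026 and 0.033, Rsad2 0.010 and 0.029, and with 1 library left out Oasl2 ran from -0.12 to 0.0085 (without C1) and Ifit3 from -0.036 (without T3) to 0.23.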

Other observations

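Rtp4, another gene known to be induced by type I interferon, was listed at 60.9 reads in C1 and at 0 in the other 11 libraries, and Gbp4 at 0 in 2 libraries and at 446 to 1063 reads in the other 10. Together with Tyk2 and Socs1, these are genes whose deposited estimates were either 0 or well above it.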
